A study of Homo sapiens with 2 samples.

Results

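Kinases transfer phosphate from ATP to proteins or to membrane lipids, and the genes described here encode members of 17 such families or proteins that carry a family symbol. They were all genes whose single gene symbol in the probe annotation began with the symbol of a mitogen-activated protein kinase (MAPK) or an upstream tier of that cascade, a cyclin-dependent kinase (CDK), protein kinase A, AMPK or protein kinase C (PRKA and PRKC), a phosphoinositide kinase, a casein kinase, a ribosomal S6 kinase (RPS6K), AKT, or the STK, CAMK, DYRK, CLK, NEK, TAOK and MARK families, except MAPK3. The rule used names and no measured value, but it was set with earlier results of these data known. It gave 57 of the 2795 genes in the table, measured by 822 probe sets. Of the 57, 36 were classed as protein kinases, 7 as lipid kinases and 14 as regulatory subunits, adaptors or scaffolds. The 36 include STK40, a predicted pseudokinase. All 57 had at least 4 probe sets and none was removed for low signal here. The table holds only part of the kinase genes: of 30 core kinases looked for, 6 were in it. How its genes were chosen was not stated in the labels used. All genes below means the 2795 of the table.

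The measurements came from HepG2, a human hepatoma cell line, grown on collagen. The knockdown culture received a locked nucleic acid (LNA) directed at TUC338, and the control culture received a control LNA. TUC338 is a noncoding RNA that holds an ultraconserved element. Each condition was measured on 1 array, so no difference below has a replicate check and no test between conditions was possible. Errors are standard deviations over the probe sets of a gene, which show how uniform a difference was along the gene and leave out the spread between cultures.

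In the MAPK cascade, kinases act in tiers, each phosphorylating the next, and the last tier phosphorylates transcription factors and other kinases. Phosphoinositide kinases add phosphates to the inositol ring of a membrane lipid, and the class I enzymes, made of a catalytic and a regulatory subunit, link insulin and growth factor receptors to AKT in liver cells. AMP-activated protein kinase (AMPK) is a complex of a catalytic and 2 regulatory subunits that senses low energy and restrains lipid synthesis in liver. Transcript level and kinase activity are different quantities, and only the first was measured here.

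Over the 45200 probe sets the median intensity was 507 in the knockdown, against 422 in the control. The gene difference, the mean over a gene's probe sets of knockdown minus control log2 intensity, had a median of 0.28 over all genes. Single genes are therefore given relative to this median gene, and the unadjusted difference is called the deposited difference. A gene that lay under this median by less than 0.28 was still brighter in the knockdown as deposited, which holds for most of the negative values below. No named probe set measured TUC338 itself. Of 12 hepatocyte markers looked for, 5 were in the table, with mean log2 intensities of 10.53 to 12.92 in the knockdown, against 9.98 to 12.64 in the control. Of 15 markers of blood, endothelium, fibroblast, neuron and muscle, 2 were: COL1A1 had 7.89 in the knockdown, against 8.51 in the control, and PDGFRB 8.17 in the knockdown, against 7.66 in the control. The mean difference of COL1A1 was -0.90 relative to the median gene, with all of its 14 probe sets below it, and its part in the kinase values was not tested. In such whole-culture RNA, fewer cells of a kind and less RNA per cell cannot be told apart.

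The kinase genes as a set lay where the other genes lay. Their median difference was 0.01 relative to the median gene (log2), with 29 genes above and 28 below it. The middle of the set ran from -0.17 to 0.17 (lower and upper quartile), and the SD over the 57 gene means was 0.28, against 0.31 over all genes. At 1.5-fold relative to the median gene, 1 kinase gene was higher, where 2.25% of all genes were higher, and 2 were lower, where 3.97% of all genes were lower. These shares are near the background, so the counts say nothing particular about kinases. A total of 43 kinase genes were within 1.25-fold of the median gene, or 75.4%, against 73.9% of all genes.

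**Figure D1:**
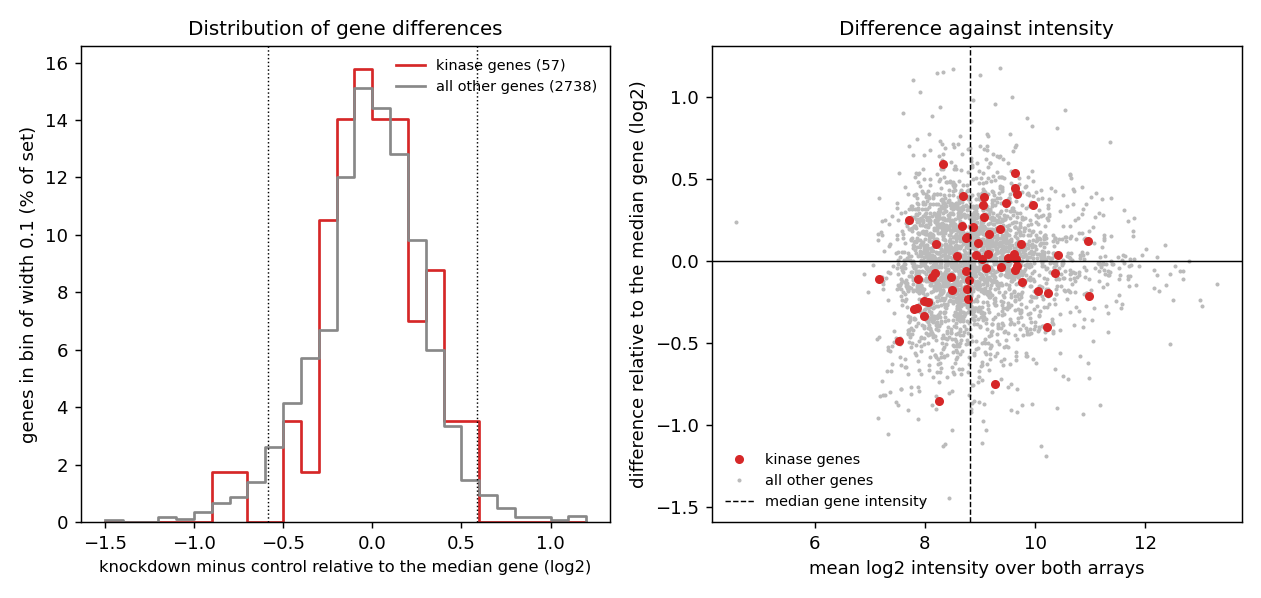
Left, the share of genes per bin of width 0.1 of the knockdown minus control difference relative to the median gene (log2), for the 57 kinase genes and the 2738 other genes, with dotted lines at 1.5-fold. Right, each gene's difference against its mean log2 intensity over both arrays; the dashed line is the median gene intensity, and 29 of the 57 kinase genes lie above 0.

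In deposited values 50 of the 57 kinase genes were higher on the knockdown array, where 82.9% of all genes were. Likewise 9 reached 1.5-fold higher, where 13.0% of all genes did, and 0 reached 1.5-fold lower, where 0.966% did. The split of calls thus turned with the offset between the arrays, from 1 higher and 2 lower relative to the median gene to 9 higher and 0 lower as deposited. The 9 were STK17A, CSNK1G3, CSNK2A2, MAPKAPK2, CLK1, CSNK1A1, STK40, PRKAB2 and PIP5K1B.

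By role, the 36 protein kinases had a median of 0.01, with 19 above the median gene and none past 1.5-fold either way. The 7 lipid kinases had a median of 0.04 and a wider spread, from -0.75 to 0.59, an SD of 0.46 against 0.22 for the protein kinases. The 14 regulatory subunits, adaptors and scaffolds had a median of -0.04, and 6 of them were above the median gene. The 3 genes past 1.5-fold were PIK3R1, a regulatory subunit, and the lipid kinases PIP4K2A and PIP5K1B. They are among 10 members of the phosphoinositide kinase families, of which 4 were above and 6 below the median gene. The median of the 10 was -0.18 (0.10 in deposited values). At 1.5-fold 1 of the 10 was higher, where 2.25% of all genes were, and 2 were lower, where 3.97% were. With several small groups examined on single arrays, these counts are not read as a trait of the families.

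**Figure D2:**
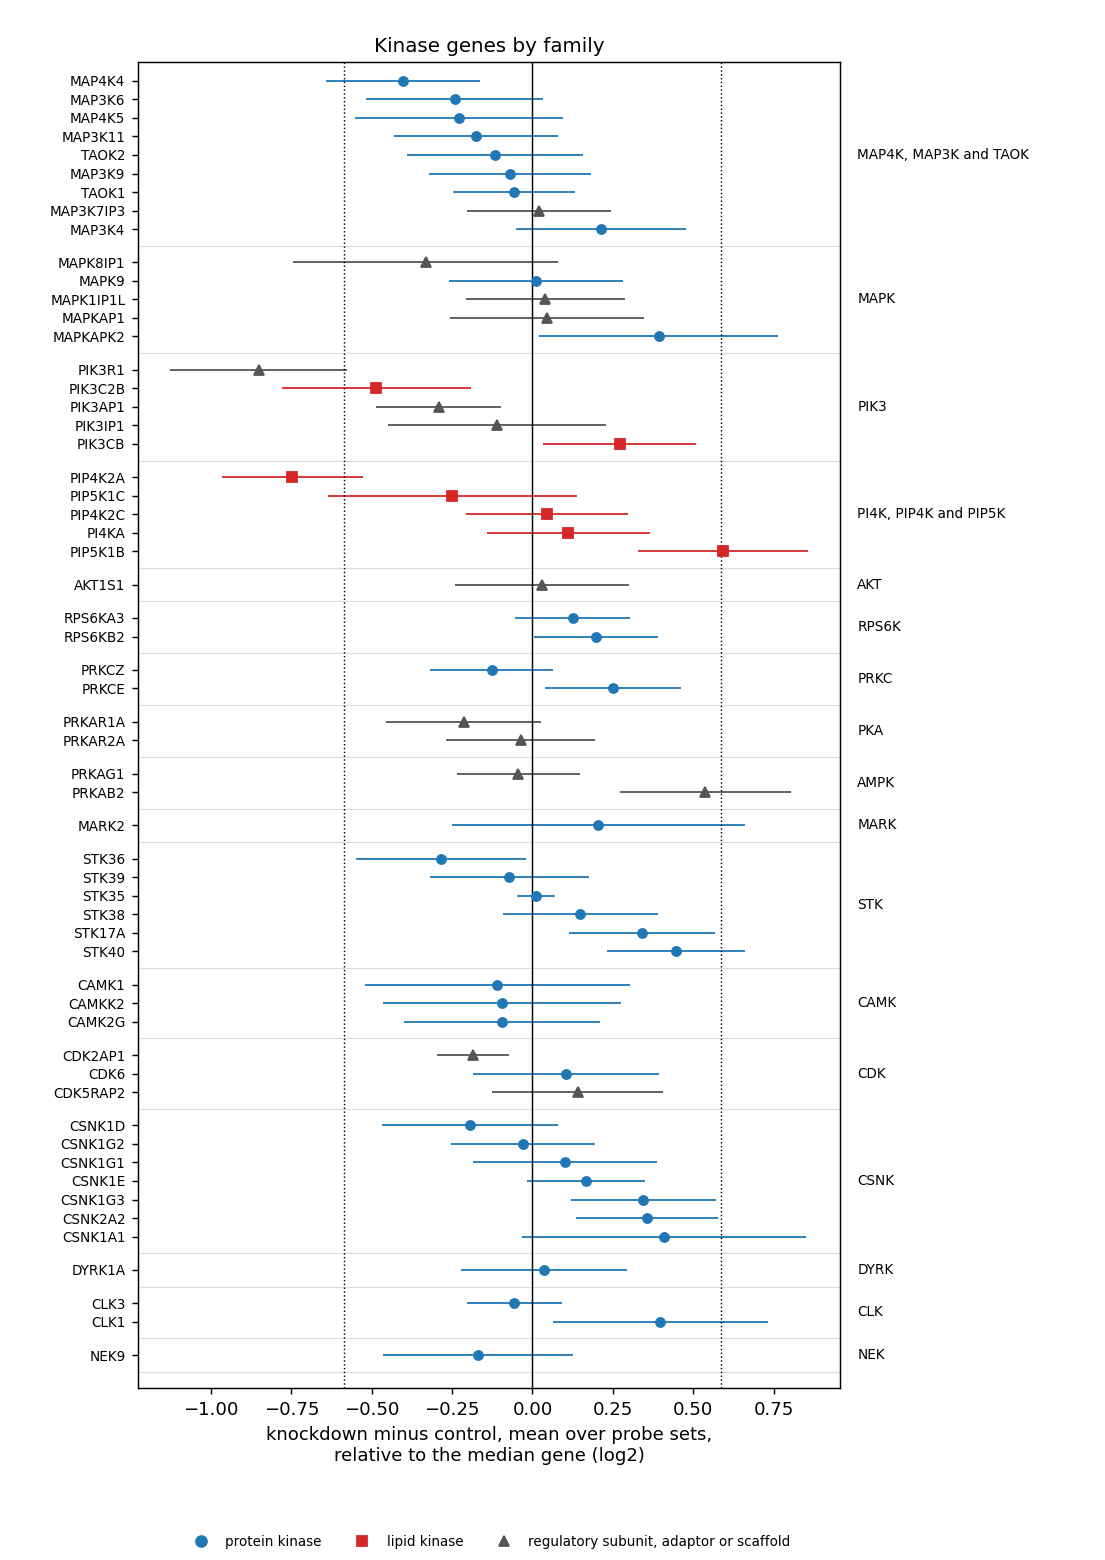
Mean difference of each of the 57 kinase genes, knockdown minus control relative to the median gene (log2, horizontal axis), by family. Bars are SDs over probe sets and dotted lines mark 1.5-fold; PIK3R1 at -0.85 and PIP4K2A at -0.75 lie past the lower line and PIP5K1B at 0.59 just past the upper one.

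The first family by size of difference was that of the phosphoinositide 3-kinases. PIK3R1, which encodes the p85 regulatory subunit that holds the class I catalytic subunits and brings them to activated receptors, had a mean log2 intensity of 7.97 in the knockdown, against 8.54 in the control. Every one of its 16 probe sets was dimmer on the knockdown array. Relative to the median gene it lay at -0.85 ± 0.28, or 55.4% of control, with single probe sets from -1.33 to -0.39. In deposited values the difference was -0.57, or 67.4% of control. Of all 2795 genes, 32 including PIK3R1 were as low or lower. Of its 16 probe sets, 4 were at or above the median probe set intensity, and their mean was -0.98 with dim probe sets left out of every gene.

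PIK3CB, the p110-beta catalytic subunit that p85 binds, lay on the other side of the median gene. It had 9.35 in the knockdown, against 8.80 in the control, a difference of 0.27 ± 0.24 relative to the median gene, with 20 of 24 probe sets above it. PIK3R1 and PIK3CB thus differed by -1.12 from each other on the same arrays, a contrast in which the array offset cancels. Their probe set values did not overlap. They are the lowest and the highest of the 5 PIK3 genes, so the width of the gap also reflects that choice. How often the probe sets of any 2 genes fail to overlap was not counted, here or for the pairs below. The other class I catalytic subunits had no named probe set in the table.

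The remaining PIK3 genes were lower than the median gene. PIK3C2B, a class II enzyme, had 7.42 in the knockdown, against 7.62 in the control. Its mean was -0.49 ± 0.29, with all of its 10 probe sets below the median gene, between -0.95 and -0.01. PIK3AP1, an adaptor that recruits p85 in B cells, lay at -0.29 ± 0.19 with all of 11 below, although its deposited difference was -0.01. PIK3IP1, a membrane protein that restrains the class I enzymes, lay at -0.11 ± 0.34 with 2 of 4 probe sets above. No probe set of PIK3C2B, PIK3AP1 or PIK3IP1 was at or above the median probe set intensity, so their values rest on dim probe sets. PIK3IP1 turned to 0.03 with the median over its probe sets.

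Among the enzymes that make phosphatidylinositol phosphates further along, paralogs differed. PIP4K2A phosphorylates phosphatidylinositol 5-phosphate and had 9.04 in the knockdown, against 9.51 in the control. All of its 10 probe sets were dimmer on the knockdown array. Its mean was -0.75 ± 0.22 relative to the median gene, or 59.6% of control, with probe sets from -1.04 to -0.35, and its deposited difference was -0.46. Over all genes 52 were as low or lower.

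PIP4K2C, its paralog, had 9.30 in the knockdown, against 8.97 in the control, and lay at 0.04 ± 0.25, with 5 of 9 probe sets above the median gene. The probe set values of the PIP4K2 paralogs only just failed to overlap. The highest of PIP4K2A was at -0.349 and the lowest of PIP4K2C at -0.347. Their means differed by -0.79.

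PIP5K1B, which phosphorylates phosphatidylinositol 4-phosphate to the bisphosphate that class I enzymes use, was the highest kinase gene. It had 8.77 in the knockdown, against 7.89 in the control, and all of its 13 probe sets were brighter on the knockdown array, by 0.45 to 1.28 in deposited values. Relative to the median gene its mean was 0.59 ± 0.26, or 1.51-fold, and 62 genes of the table were as high or higher. It lay just past the 1.5-fold limit, and PRKAB2 at 0.54 (1.45-fold) was the nearest kinase gene outside it. With the median over its probe sets, quantile normalization or an intensity trend removed, PIP5K1B lay at 0.58, 0.57 and 0.57. It was then no longer past 1.5-fold. Its brightest probe set lay at 0.97, or at 1.06 relative to the median over all genes of their brightest probe sets. Brightest probe set values below are on the latter scale unless stated.

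PIP5K1C, of the same subfamily, had 8.08 in the knockdown, against 8.05 in the control, and lay at -0.25 ± 0.39. Of its 10 probe sets 3 were above, and the values overlapped those of PIP5K1B, from which its mean differed by 0.84. No PIP5K1C probe set was at or above the median probe set intensity. The gene lay at -0.14 with the median over its probe sets and at -0.08 at its brightest one. PI4KA, the kinase that supplies phosphatidylinositol 4-phosphate at the plasma membrane, was near the median gene at 0.11 ± 0.25, with 26 of 38 probe sets above.

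**Figure D3:**
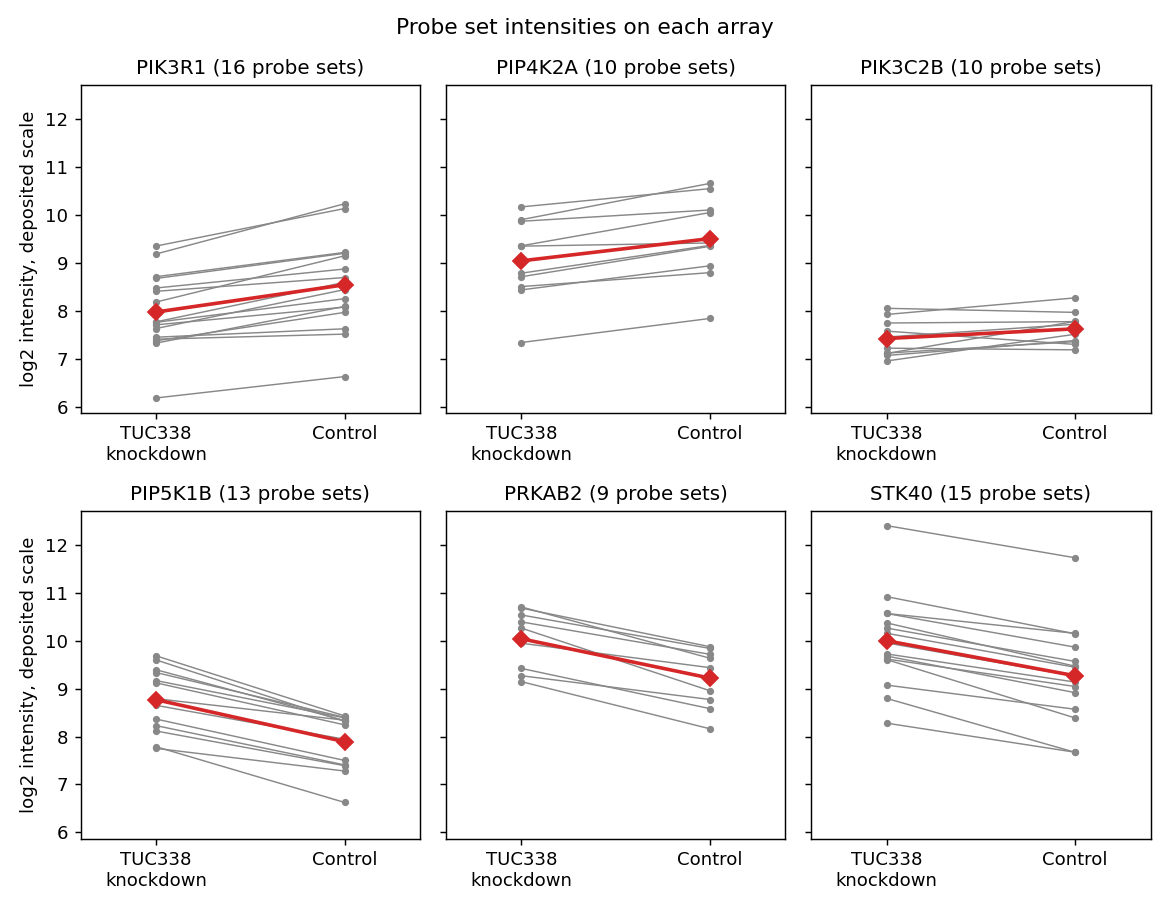
Log2 intensity (vertical axis, deposited scale) of every probe set of 6 genes on the knockdown and the control array. Grey lines join the values of a probe set and red diamonds are means; all lines of PIK3R1 and PIP4K2A are lower in the knockdown, those of PIK3C2B are mixed in deposited values, and all of PIP5K1B, PRKAB2 and STK40 are higher.

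The promoters of the 3 genes past 1.5-fold are shown because they are the regulatory sequence next to the genes with the largest differences. They are RefSeq sequences of build GRCh38.p14, each of 300 bases on the gene's strand around the annotated start. Capitals mark non-overlapping matches of GGGCGG or its complement CCGCCC, the GC box bound by SP1-type factors. The windows are chr5:68215506-68215805 on the plus strand, chr10:22714529-22714828 on the minus strand and chr9:68704990-68705289 on the plus strand.
PIK3R1: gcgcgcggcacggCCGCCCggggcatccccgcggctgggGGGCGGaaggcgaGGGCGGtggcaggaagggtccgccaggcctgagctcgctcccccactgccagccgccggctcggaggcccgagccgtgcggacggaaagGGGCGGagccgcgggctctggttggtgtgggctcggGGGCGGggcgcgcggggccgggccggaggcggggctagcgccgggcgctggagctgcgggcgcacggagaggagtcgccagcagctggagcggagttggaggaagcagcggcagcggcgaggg
PIP4K2A: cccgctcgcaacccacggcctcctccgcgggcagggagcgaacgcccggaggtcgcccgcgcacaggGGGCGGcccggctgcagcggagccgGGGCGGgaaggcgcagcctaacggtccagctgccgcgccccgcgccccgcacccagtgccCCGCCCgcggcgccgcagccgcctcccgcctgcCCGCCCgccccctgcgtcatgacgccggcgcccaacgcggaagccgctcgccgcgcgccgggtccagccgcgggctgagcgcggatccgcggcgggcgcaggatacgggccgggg
PIP5K1B: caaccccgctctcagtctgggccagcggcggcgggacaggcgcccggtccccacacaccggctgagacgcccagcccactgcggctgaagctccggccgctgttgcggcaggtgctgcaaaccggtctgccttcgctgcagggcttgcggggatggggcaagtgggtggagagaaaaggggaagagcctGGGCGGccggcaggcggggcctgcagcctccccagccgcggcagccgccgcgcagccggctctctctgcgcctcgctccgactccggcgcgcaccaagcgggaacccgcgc

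The GC box occurred 5 times in the PIK3R1 window, 4 times in that of PIP4K2A and 1 time in that of PIP5K1B, counted on both strands without overlap. In the PIP4K2A window a further CCGCCC overlaps the last marked one and was neither marked nor counted. CG dinucleotides numbered 42, 54 and 33 in the same order. Of 51 kinase genes with a promoter in the reference, 40 (78.4%) held a GC box, against 71.6% of the 2372 promoters of genes in the table and 44.6% of all 27305 promoters. The CCAAT box, CCAAT, was in 14 of the 51 (27.5%) and in 35.5% of table promoters. TATAAA was in 2 (3.92%) and in 4.64%, CACGTG in 5 (9.80%) and in 11.2%, and the cAMP response element TGACGTCA in 1 (1.96%) and in 3.50%. The printed windows held none of the last 4 motifs. A transcript may start elsewhere in HepG2, and a match describes letters only.

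In the upstream tiers of the MAPK cascade, 7 of 9 genes lay below the median gene, with a median of -0.12 (0.17 in deposited values) and none past 1.5-fold. MAP4K4, a kinase upstream of JNK, was the lowest. It had 10.15 in the knockdown, against 10.27 in the control, and 45 of its 47 probe sets were below the median gene, with a mean of -0.40 ± 0.24. Its deposited difference was -0.12. MAP4K5 was at -0.23 ± 0.32, with 8 of 27 probe sets above the median gene, and MAP3K6, a partner of the stress kinase ASK1, at -0.24 ± 0.28 with 2 of 9 above. The direction of MAP3K6 turned at its brightest probe set, to 0.14, and none of its probe sets was at or above the median probe set intensity.

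The remaining upstream genes below the median gene were MAP3K11, TAOK2, MAP3K9 and TAOK1, between -0.18 and -0.06. TAB3, listed under its older symbol MAP3K7IP3 and known as an adaptor of the kinase TAK1, was at 0.02 ± 0.22. MAP3K4, which feeds the p38 and JNK branches, was the highest of this tier at 0.21 ± 0.26, with 20 of 25 probe sets above the median gene. It had 8.93 in the knockdown, against 8.43 in the control, and lay at 0.04 over its 10 probe sets at or above the median probe set intensity. Every one of these 9 genes except MAP4K4 was above 0 in deposited values.

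At and around the terminal kinases, 4 of 5 genes were above the median gene. MAPK9, MAPK1IP1L and MAPKAP1 were so by only 0.01 to 0.04. With the median over probe sets, MAPK9 and MAPKAP1 lay below, at -0.03 and -0.02. MAPK9, which encodes JNK2, was near the median gene at 0.01 ± 0.27, with 9.19 in the knockdown, against 8.89 in the control. MAPKAPK2, the kinase MK2 that p38 activates and that stabilises inflammatory mRNAs, had 9.41 in the knockdown, against 8.74 in the control. Its mean was 0.39 ± 0.37, with 13 of 14 probe sets above the median gene. A single probe set at 1.40 stood apart from the other 13, and without it, in a comparison chosen after the values were seen, the mean was 0.32 ± 0.24.

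MAPK8IP1, the JIP1 scaffold of the JNK module, was at -0.33 ± 0.41 with 7 of 9 below. Its lowest probe set, at -1.29, stood apart from the next at -0.48. The brightest probe set was at -0.07, or 0.02 relative to the median over all genes of their brightest probe sets. It was the only one at or above the median probe set intensity, and lay at -0.05 with dim probe sets left out. The gene was dim, at 7.96 in the knockdown, against 8.01 in the control. MAPKAP1, the SIN1 subunit of the mTOR complex that phosphorylates AKT, was at 0.04 ± 0.30, and MAPK1IP1L was at 0.04 ± 0.25.

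The kinases of the A, C and S6 type and the AKT-linked genes lay between -0.21 and 0.25, apart from AMPK. PRKAB2, a beta subunit of AMPK that binds glycogen and holds the complex together, had 10.04 in the knockdown, against 9.22 in the control. All of its 9 probe sets were above the median gene, from 0.21 to 1.02, with a mean of 0.54 ± 0.27, and 78 genes of the table were as high or higher. PRKAG1, the gamma subunit that binds AMP, was at -0.04 ± 0.19 with 5 of 12 probe sets above. The 2 subunits of this complex thus differed by 0.58, with overlapping probe set values. The AMPK catalytic subunits had no named probe set in the table.

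The regulatory subunits of protein kinase A, which hold its catalytic subunit inactive until cAMP binds, were at -0.21 ± 0.24 (PRKAR1A) and -0.04 ± 0.23 (PRKAR2A). PRKAR1A had 11.01 in the knockdown, against 10.95 in the control, and 9 of its 10 probe sets were below the median gene. Of the protein kinase C genes, the calcium-independent PRKCE was at 0.25 ± 0.21 and the atypical PRKCZ at -0.13 ± 0.19. The ribosomal S6 kinases were at 0.12 ± 0.18 for RPS6KA3, a target of ERK, and 0.20 ± 0.19 for RPS6KB2, a target of mTORC1. AKT1S1, the mTORC1 inhibitor PRAS40, was at 0.03 ± 0.27.

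All 7 casein kinase genes were above 0 in deposited values, and 5 of 7 were above the median gene, with a median of 0.17. CSNK1A1, which primes beta-catenin for destruction, had 10.02 in the knockdown, against 9.33 in the control. Its mean was 0.41 ± 0.44, among the widest spreads of any member, with probe sets from -0.45 to 0.99 and 8 of 10 above the median gene. Over its probe sets at or above the median probe set intensity, of which there were 6, the mean was 0.64, which is past 1.5-fold.

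CSNK1G3 was at 0.35 ± 0.22 with 15 of 16 probe sets above, and CSNK2A2, a catalytic subunit of casein kinase 2, at 0.36 ± 0.22 with 9 of 10 above. CSNK1E and CSNK1D, which both phosphorylate the PER clock proteins, were at 0.17 ± 0.18 and -0.19 ± 0.27, a difference of 0.36 with overlapping probe sets. CSNK1G1 and CSNK1G2 were at 0.10 ± 0.29 and -0.03 ± 0.22.

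Of the 6 STK genes, 4 were above the median gene. STK40, a predicted pseudokinase, had probe set log2 intensities of 8.28 to 12.40 in the knockdown, against 7.67 to 11.73 in the control. All of its 15 probe sets were above the median gene, from 0.13 to 0.94, with a mean of 0.45 ± 0.21. STK17A, linked to apoptosis, was at 0.34 ± 0.23 with 8 of 9 above, but its brightest probe set was at -0.07. STK36, a homolog of the Drosophila Hedgehog regulator fused, was at -0.28 ± 0.27 with 16 of 19 below. It was dim, at 7.86 on each array, and only 1 of its 19 probe sets, at -0.61 in the setting without dim probe sets, was at or above the median probe set intensity. STK38 was at 0.15 ± 0.24, STK35 at 0.01 ± 0.06 and STK39, which acts on ion cotransporters, at -0.07 ± 0.25.

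CLK1 and CLK3 phosphorylate the serine- and arginine-rich splicing factors. CLK1 had 9.04 in the knockdown, against 8.36 in the control, a mean of 0.40 ± 0.33 with 6 of 7 probe sets above the median gene, and CLK3 was at -0.06 ± 0.15 with 3 of 10 above. The paralogs differed by 0.45, with overlapping probe set values. DYRK1A, a related kinase of splicing factors and other nuclear proteins, was at 0.04 ± 0.26.

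The cell cycle and calcium families were close to the median gene. CDK6, which with D-type cyclins drives cells through G1, had 9.93 in the knockdown, against 9.54 in the control, and a mean of 0.10 ± 0.29, with 11 of 17 probe sets above. CDK5RAP2, a centrosome protein, was at 0.14 ± 0.27 over 43 probe sets, but at -0.18 at its brightest one. CDK2AP1, a CDK2-binding protein, was at -0.19 ± 0.11 with all of its 6 probe sets below the median gene. NEK9, a mitotic kinase, was at -0.17 ± 0.30. The calcium and calmodulin kinases CAMK1, CAMKK2 and CAMK2G lay between -0.11 and -0.09.

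Probe sets of a gene did not always agree. The 3 members with the widest spread over probe sets were MARK2, CSNK1A1 and CAMK1. MARK2, a polarity kinase that phosphorylates microtubule-associated proteins, was at 0.21 ± 0.46, with 15 of 17 probe sets above the median gene. A single MARK2 probe set had 9.79 in the knockdown, against 10.89 in the control, or -1.38, and the next lowest was at -0.05. Without it, a comparison chosen after the values were seen, MARK2 was at 0.30 ± 0.21. CAMK1 had probe sets from -0.70 to 0.76. CAMK2G was at -0.09 ± 0.31 over 18 probe sets, but its brightest probe set was at -0.81. The brightest probe set lay on the other side of the median gene from the gene's mean for MAPK8IP1, MAP3K6, CDK5RAP2 and STK17A, as given above, and for CAMKK2 at 0.22, MAP3K11 at 0.16, PRKAG1 at 0.14, TAB3 at -0.11, PI4KA at -0.12 and DYRK1A at -0.21. It did so closer to 0 for PRKAR1A at 0.03, CSNK1D at 0.01, STK38 at -0.02 and MAPK9 at -0.05. All these brightest values are relative to the median over all genes of their brightest probe sets. On the scale of the other single probe sets, those of PRKAR1A, CSNK1D and MAPK8IP1 lay at -0.05, -0.07 and -0.07. That is the same side as their means. The brightest ones of CSNK1E, MAPKAP1 and STK35, at -0.04, -0.03 and -0.04 on that scale, lay opposite to their means.

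As a count added after the values were seen, genes with every probe set on one side of the median gene were listed. Among the kinase genes 3 had every probe set above it, PIP5K1B, PRKAB2 and STK40, where 7.33% of genes with at least 4 probe sets did. Another 5 had every probe set below it, PIK3R1, PIP4K2A, PIK3C2B, PIK3AP1 and CDK2AP1, where 9.04% did. These counts are near or below the background shares.

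Members also differed by intensity. Of the 32 kinase genes at or above the median gene intensity, 21 were above the median gene in difference, with a median of 0.04. Of the 25 dimmer ones, 8 were, with a median of -0.11. Over all genes the same split gave 741 of 1398 and 656 of 1397, with medians of 0.01 and -0.02. The part of signal intensity in this was not tested. Removing an intensity trend left PIK3R1 at -0.87, PIP4K2A at -0.74 and PRKAB2 at 0.55.

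Partners of these kinases were set beside them from lists made by role. Of 6 Ras and Raf genes none was past 1.5-fold, with a median of 0.09, the exchange factor SOS2 highest at 0.35 ± 0.30 and MRAS lowest at -0.17 ± 0.41. Of 7 PI3K and mTOR partners 1 was higher, where 2.25% of all genes were, and none lower, with a median of 0.01. With several short lists examined, a single such gene says nothing particular about its list, here or below. RICTOR, the defining subunit of the mTOR complex that also contains MAPKAP1, had 9.49 in the knockdown, against 8.51 in the control, and all of its 38 probe sets were above the median gene, with a mean of 0.70 ± 0.30. MTOR itself, listed under its older symbol FRAP1 and named after its value was seen, was at 0.01 ± 0.24 over 62 probe sets. INPPL1, a phosphatase of the class I product, was lowest at -0.47 ± 0.27 with all of 20 probe sets below.

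The list of cyclins and CDK inhibitors had 8 genes, whose symbols include the cyclin-binding CCNDBP1 and CCNB1IP1. Of the 8, 1 was lower, where 3.97% of all genes were, and none higher, with a median of 0.14. CCND2, cyclin D2 and a partner of CDK6, had 7.38 in the knockdown, against 8.56 in the control, and all of its 7 probe sets were below the median gene. Its mean of -1.46 ± 0.30 was the lowest of the 2795 genes. CCNDBP1 was the highest of the list at 0.32 ± 0.34.

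Of 16 protein phosphatase genes, which reverse kinase action, none was past 1.5-fold, with a median of 0.09 and 10 above the median gene. PPP2CB, a catalytic subunit of protein phosphatase 2A, was highest at 0.44 ± 0.25 with all of 10 probe sets above, and DUSP3, a phosphatase of MAP kinases, lowest at -0.44 ± 0.22 with all of 8 below. Of 5 LKB1 and AMPK partners none was past 1.5-fold. The AMPK substrate ACACA was lowest at -0.55 ± 0.24, with 63 of 64 probe sets lower, and the AMPK-binding FNIP1 highest at 0.34 ± 0.42. Of 10 scaffolds and adaptors 7 were below the median gene and none was past 1.5-fold, with a median of -0.14 (0.15 in deposited values), IQGAP1 lowest at -0.39 ± 0.23 and YWHAZ highest at 0.05 ± 0.48. Of 14 ERK output genes only ETV4 was in the table, at 0.16 ± 0.22.

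**Figure D4:**
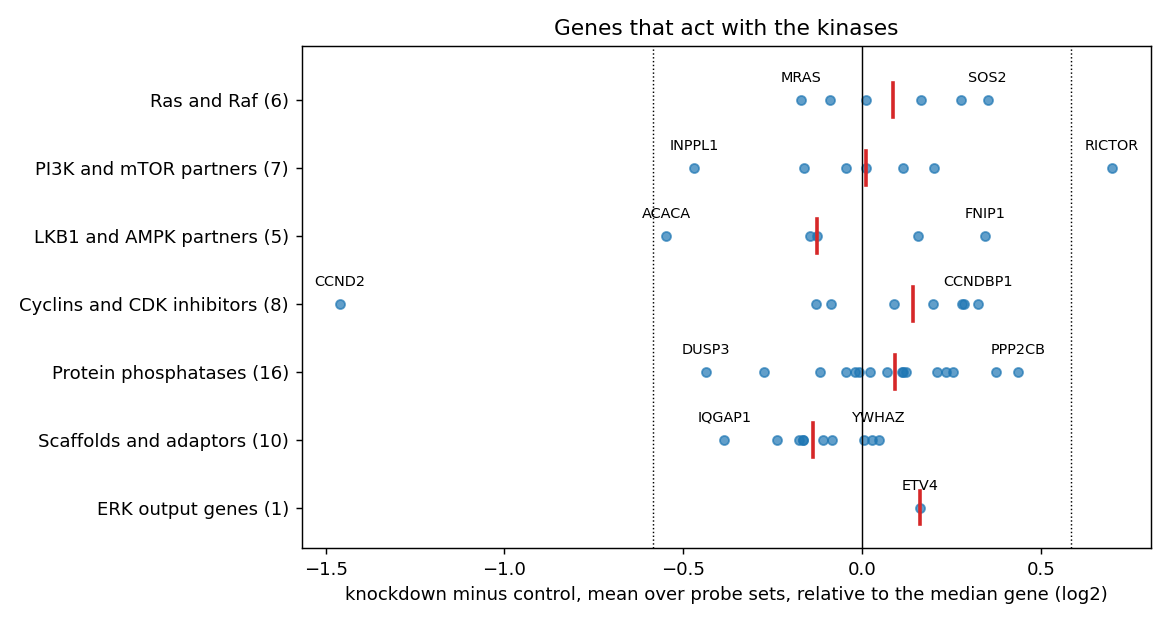
Mean difference of partner genes, knockdown minus control relative to the median gene (log2, horizontal axis), by list with its number of genes. Points are genes, red bars list medians, dotted lines 1.5-fold; RICTOR at 0.70 and CCND2 at -1.46 are the genes past those lines.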

How the data were processed

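RNA from 1 TUC338 knockdown and 1 control culture was measured on an array whose supplied annotation is that of an Affymetrix exon design, with several probe sets per gene. The authors deposited 45200 natural log intensities for each array. The normalization, summary and build were not stated in the labels used here. The scale was settled from the values. Exponentials of 41367 knockdown and 42089 control values under 2000 piled on 1 residue of 0.5 (fullest bin 1154 and 1167, mean bin 82.7 and 84.2), which powers of 2 did not. They were converted to log2 intensities.

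The annotation gave 1 symbol for 42575 probe sets, several for 1055 and none for 1570. Only the first were used. All 57 kinase genes were found in RefSeq (GRCh38.p14), 1 through an older symbol. A gene's value is the mean over its probe sets, minus the median over all 2795 genes. Calls were made at 1.5-fold. The number of arrays, 1 per condition, limits the precision. Names were given to the 10 highest and lowest members, the extremes of each family, the 6 measured of 30 core kinases and the 3 of widest spread; the rest are listed by value. Members and lists were chosen with earlier results of these data known. The steps were tested on simulated data. Software was Python 3.11.15, numpy 2.4.6, pandas 2.3.3 and statsmodels 0.14.6.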

Additional observations from a re-analysis of the deposited data

How the results depend on the processing

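A set of 8 alternatives was run, and with 1 array per condition none includes the spread between cultures. Each, apart from the deposited differences, was centred on its own median over all genes. The median over kinase genes, 0.01 relative to the median gene, lay between -0.02 and 0.04 under the 7 alternatives that keep the subtraction of the array offset, and was 0.29 in deposited values, with 50 genes above 0, 9 at least 1.5-fold higher and 0 lower. The count at least 1.5-fold higher, 1 in the values reported, was 3 at the brightest probe set (MAPKAPK2, PRKAB2 and PIP5K1B), 2 with dim probe sets left out (CSNK1A1 and PIP5K1B), and 0 with the median over probe sets, with quantile normalization, with an intensity trend removed, or with deposited values read as log2. The count at least 1.5-fold lower, 2 in the values reported, was 1 with values read as log2, which shrinks every difference by construction, 3 with dim probe sets left out, which added STK36 on 1 of its 19 probe sets, and 2 under the other settings that subtract the offset, where the brightest probe set gave PIK3R1 and CAMK2G. PIK3R1 lay between -0.98 and -0.59 over these 7 settings and PIP4K2A between -0.79 and -0.52, the value nearest 0 of each with values read as log2. PIP4K2A was -0.58 at its brightest probe set and so just short of 1.5-fold in that setting. The same probe set was at -0.66 relative to the median gene of the values reported. PIP5K1B lay between 0.41 and 1.06. None of PIK3R1, PIP4K2A and PIP5K1B changed sign under any of the 8. Leaving out genes with fewer than 4 probe sets could remove no kinase gene, since all 57 have at least 4. Leaving out dim probe sets left 49 of the 57 genes. It removed PIK3C2B, PIK3AP1, PIK3IP1, PIP5K1C, MAP3K6, MAP3K11, CAMK1 and PRKCE, whose values rest on dim probe sets. The causes of these changes were otherwise not tested. No paired analysis was possible because each condition has 1 array. Dim genes such as PIK3C2B and STK36 have no detection call in the table, so whether they were above background is not known.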

Other observations

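Probe sets that the annotation gives to several genes entered none of the values above. A total of 6 of them name both PIP5K1A, a further phosphatidylinositol 4-phosphate kinase, and PIPSL, a gene derived from its sequence. The 5 that list PIPSL first had a mean log2 intensity of 9.75 in the knockdown, against 8.56 in the control, and lay 0.91 ± 0.20 above the median gene (SD over probe sets), between 0.64 and 1.13. The remaining one was at 1.12. These probe sets cannot tell the 2 genes apart. Another 13 name PI4KA and its pseudogenes PI4KAP1 and PI4KAP2 and lay at -0.24 ± 0.15, none above the median gene, and 1 more that names the same genes in another order was at 0.18, while the 38 probe sets of PI4KA alone had a mean of 0.11 ± 0.25. The 5 probe sets shared by CLK1 and PPIL3 were at 0.10 ± 0.25, against 0.40 ± 0.33 for those of CLK1 alone.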
